A study of Bos taurus with 12 samples.

Results

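The 12 libraries were split by the share of their reads that fell on a single gene, ENSBTAG00000043561, the most abundant gene in the count table. The members were chosen by this share alone: 6 libraries in which the gene took 5% or more of all counts formed the high group, and the 6 libraries in which it took under 5% formed the low group, out of 12 in all. Each library came from 1 Simmental-Angus crossbred heifer. Peripheral white blood cells (PWBCs) were isolated from jugular blood drawn 2 days before artificial insemination (AI), at the first breeding season, after the same estrus synchronization with GnRH, a progesterone insert and prostaglandin in every heifer. Heifers labelled fertile became pregnant to that AI, and those labelled subfertile were still open after a following natural service period. The high group held 3 fertile and 3 subfertile heifers, and so did the low group. Reproductive tract score was 4 in 10 heifers and 5 in 1 high (fertile replicate 2) and 1 low (subfertile replicate 1) heifer. Replicate numbers below only name the heifers of a label in the order of deposition.

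PWBCs are a mixture of lymphocytes, monocytes and granulocytes, usually with some platelets and immature red cells carried along, so the RNA of such a sample depends on which cells were in it as well as on what each cell expressed. In bulk RNA, fewer cells of a type and less RNA per cell cannot be told apart. A sequencing library is also a fixed pool of reads: when 1 transcript takes a larger share, all other transcripts together take a smaller one. For this reason levels are given as CPM, the counts scaled to a common library size, after TMM normalization, which scales each library so that most genes do not shift. Neither the annotation tables used here nor the count table give a name for ENSBTAG00000043561, so it is referred to as the top gene, and no sequence or genome position could be read for it. The comparison was planned on the view that it is a transcript of the mitochondrial genome, which could not be checked here.

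The shares that chose the groups were 7.40% (subfertile replicate 5), 7.16% (subfertile replicate 4), 7.13% (fertile replicate 2), 7.06% (subfertile replicate 2), 6.54% (fertile replicate 3) and 5.46% (fertile replicate 5) in the high group. In the low group they were 3.71% (fertile replicate 1), 3.45% (subfertile replicate 1), 3.06% (fertile replicate 4), 3.02% (subfertile replicate 6), 2.60% (subfertile replicate 3) and 1.82% (fertile replicate 6). Fertile replicate 5 was the high library nearest the threshold and fertile replicate 1 the nearest low library, and 5 of the 6 high libraries lay within 1 percentage point of each other. The 95% Wilson intervals of these shares were at most 0.027 percentage points wide, and they cover counting error only. Normalized levels of the top gene were 55997, 74256 and 82718 CPM (lowest, median and highest) in the high libraries and 18652, 28633 and 33692 CPM in the low libraries, a log2 fold change (log2FC) of 1.40 ± 0.15 (SE). No test was made on it, since this gene defined the groups.

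The share, by which the groups were made with 3 libraries of each label on either side, was 5.12% ± 2.31 (SD, n = 6) in subfertile and 4.62% ± 2.09 (SD, n = 6) in fertile heifers. The mean log2 share was higher by 0.16 in subfertile heifers with all libraries, and differed by -0.08 without fertile replicate 6, the library with the smallest share. No P-value is given for it, because the share made the groups.

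**Figure D1:**
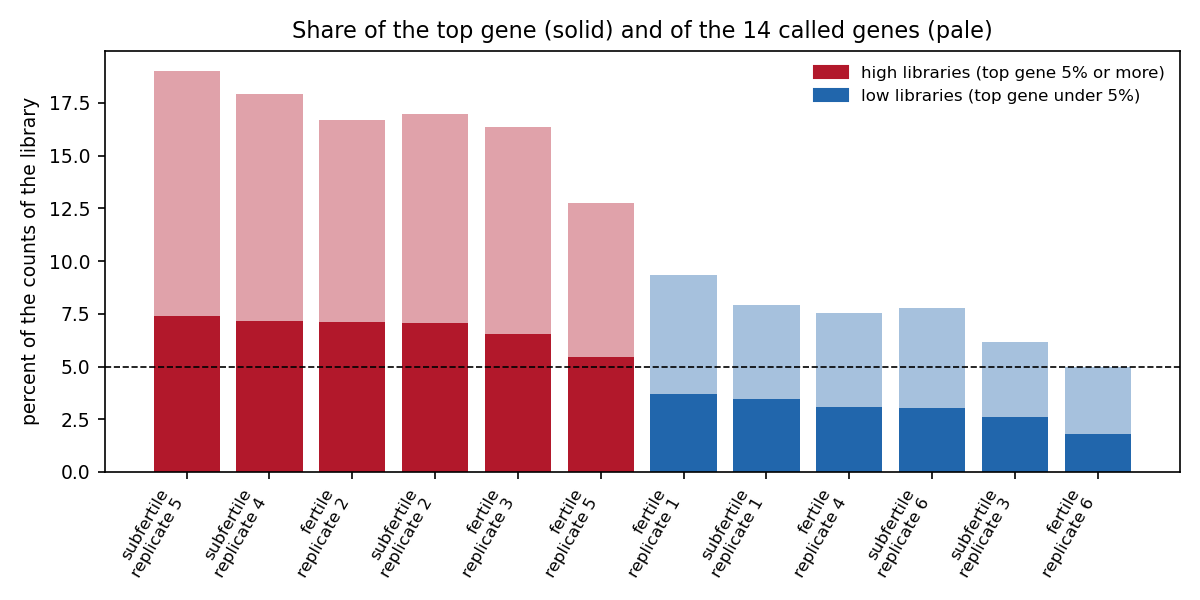
Percent of each library's counts on ENSBTAG00000043561 (solid bars) and, stacked on top, on the 14 other genes called between the groups (pale bars), for the 6 high libraries (red) and the 6 low libraries (blue), with the 5% threshold as a dashed line. Libraries are in the order of the solid part, and the whole bar runs from 19.0% of all counts in subfertile replicate 5 to 4.97% in fertile replicate 6.

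High and low libraries were then compared across all other genes by the quasi-likelihood test of edgeR in a model that held the fertility label as well, and log2FC is given as high against low. These P-values describe how genes go along with a grouping that was itself drawn from the same 12 libraries, 1 per heifer. For a gene whose level follows that of the top gene, such a P-value restates the rule. The plan was to leave other transcripts of the mitochondrial genome untested as well, but none could be identified. At a Benjamini-Hochberg adjusted P of 0.05 or less, 14 of 13011 genes were higher in the high libraries (0.108%) and 0 were lower (0%), with 920 genes lower at an unadjusted P of 0.05 or less (7.07%) and 721 higher (5.54%). At that adjusted P, DESeq2 called 111 genes, of which 61 were lower, and voom called 15, of which 0 were lower; both included the 14. The median log2FC of all genes tested was 0.02 under TMM and -0.16 when libraries were scaled by their totals alone, where edgeR called 25 genes, 12 of them lower; changes below are relative to the TMM scale.

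All 14 called genes had identifiers between ENSBTAG00000043545 and ENSBTAG00000043584, the range that also holds the top gene, and none of the 14 has a symbol in the tables used. Their log2FC ran from 1.09 to 1.52 with a median of 1.35, close to that of the top gene itself. Their adjusted P-values therefore describe the grouping and are not support apart from the rule. In all 14 the high and low libraries did not overlap; over all genes tested this was so for 0.561% with the high libraries above and 0.4% with them below. The gene with the smallest P, ENSBTAG00000043545, had 159 CPM in the lowest, 206 in the median and 236 in the highest high library, and 67.0, 84.1 and 94.0 CPM in the low libraries. Its log2FC was 1.33 ± 0.12 (SE, edgeR adjusted P = 0.000512). Every high library was thus well above every low library, and the lowest high library was fertile replicate 5, the one nearest the threshold. The log2 ratio of this gene to the top gene overlapped between groups, with means that differed by -0.09. Its separation of the groups thus largely restates the rule.

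ENSBTAG00000043577, second by P, was far more abundant, with 9489, 12389 and 15526 CPM in the high and 3226, 4493 and 5928 CPM in the low libraries (log2FC 1.49 ± 0.16 SE, edgeR adjusted P = 0.0019). The most abundant of the 14 was ENSBTAG00000043560, with 11053, 15421 and 23364 CPM against 4418, 6266 and 9143 CPM (log2FC 1.38 ± 0.21 SE, edgeR adjusted P = 0.0196). The largest difference was in ENSBTAG00000043572, with 32.4, 48.7 and 103.6 CPM against 11.1, 19.6 and 22.9 CPM (log2FC 1.52 ± 0.26 SE, edgeR adjusted P = 0.0451). The smallest was in ENSBTAG00000043582, with 17.8, 20.6 and 24.6 CPM against 7.502, 9.54 and 13.2 CPM (log2FC 1.09 ± 0.15 SE, edgeR adjusted P = 0.00667). These last 3 genes were picked after their values were seen. The 14 genes thus spanned mean levels from 15.4 to 11483 CPM, and 9 of them were at 4250 CPM or more.

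Together the 14 genes held 7.31%, 9.86% and 11.6% (lowest, median and highest) of the counts of a high library and 3.15%, 4.49% and 5.65% of those of a low library. With the top gene added, the 15 genes took 12.8% to 19.0% of a high library and 4.97% to 9.36% of a low one. Within that sum the top gene made up 38.9% to 42.8% in high and 36.6% to 43.5% in low libraries, ranges that overlap. The ratio of each of the 14 genes to the top gene overlapped between groups. Both this and the part of the sum are descriptions with no test, since the top gene made the groups and the 14 were called for a difference between them. The widest gap between group means of that log2 ratio was -0.31 for ENSBTAG00000043582 and the narrowest -0.02 for ENSBTAG00000043568.

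Among the low libraries some of the 14 ratios to the top gene were spread more widely. ENSBTAG00000043560 had the highest log2 ratio in fertile replicate 6 (-1.55) and the lowest in subfertile replicate 1 (-2.68), and the SD of the ratio was 0.47 in low and 0.22 in high libraries. ENSBTAG00000043568 also had its extremes in these 2 low libraries (-3.04 and -3.97), with an SD of 0.41 in low and 0.13 in high libraries. ENSBTAG00000043577, in contrast, had an SD of 0.12 in low and 0.08 in high libraries. The spread of the ratios was not tested between groups, and these genes were picked after their values were seen.

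The count table has 39 identifiers in this range. Of these, 15 did not pass the filter on low counts and 23 were tested beside the top gene. All 23 had a log2FC above 0, against 52.6% of all genes tested, and 16 of them did not overlap between groups. These counts are a description, since 14 of the 23 were called for being higher and the range ends at called genes. ENSBTAG00000043583, not called, passed the filter on low counts through the high libraries. Of the 9 not called, 5 had an unadjusted P of 0.05 or less, among them ENSBTAG00000043565 with 12.1, 17.6 and 20.5 CPM against 6.23, 7.45 and 10.7 CPM (log2FC 1.09 ± 0.20 SE, edgeR adjusted P = 0.0797). A pair of abundant genes of the range differed less: ENSBTAG00000043570 had 3806, 5028 and 6807 CPM against 2054, 3224 and 6108 CPM (log2FC 0.70 ± 0.24 SE, edgeR adjusted P = 0.316), and ENSBTAG00000043567 had 865, 1154 and 1637 CPM against 376, 720 and 1511 CPM (log2FC 0.64 ± 0.30 SE, edgeR adjusted P = 0.403). In both, high and low libraries overlapped. The only gene of the range with a symbol, TXNRD2, a thioredoxin reductase, had 32.8, 38.1 and 52.6 CPM against 25.0, 33.8 and 42.2 CPM (log2FC 0.24 ± 0.15 SE, edgeR adjusted P = 0.503). Whether any of these identifiers share reads with each other was not tested, because no sequence was at hand for them.

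**Figure D2:**
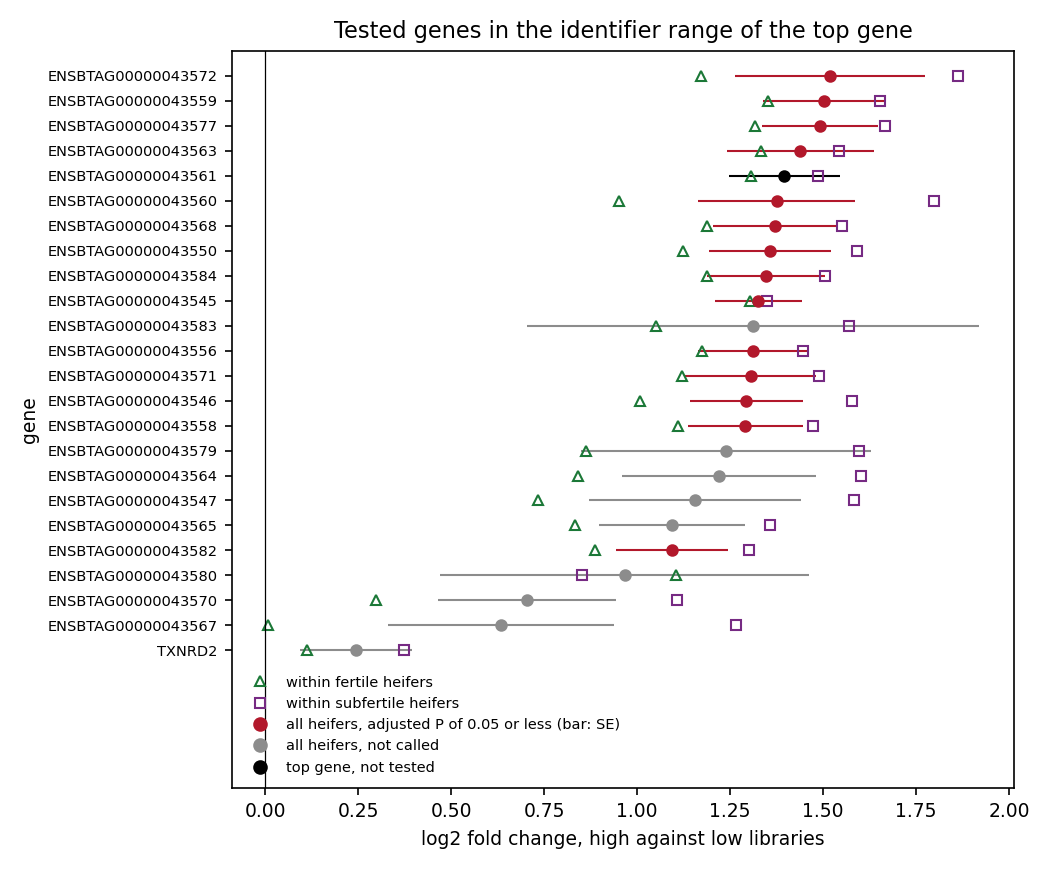
Log2 fold change of high against low libraries for the 24 genes of the identifier range that passed the filter on low counts, in all heifers (filled circles, bars are SE), within fertile heifers (green triangles) and within subfertile heifers (purple squares). All filled circles are right of 0, the 14 called genes (red) lie between 1.09 and 1.52 around the top gene (black) at 1.40, and 9 genes (grey) were not called.

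The difference was present under both fertility labels. For the 14 genes, log2FC of high against low libraries was 0.89 to 1.35 among fertile heifers and 1.3 to 1.86 among subfertile heifers, in a fit with 4 groups of 3 libraries. Among subfertile heifers alone edgeR called 14 genes at the adjusted threshold, 11 of which were among the 14 above. Past the unadjusted P and fold thresholds given below were 1377 genes in subfertile and 269 in fertile heifers. Among fertile heifers alone edgeR called 0 genes at the adjusted threshold, and all 14 genes had an unadjusted P of 0.05 or less. These values within each label are a description, since the 14 genes were called for the difference over the same libraries. The interaction of high/low with fertility had an unadjusted P between 0.0333 and 0.853 for these genes and passed the adjusted threshold for none of them. ENSBTAG00000043560, at 0.95 in fertile and 1.80 in subfertile heifers, had the smallest of these P-values.

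Outside the identifier range edgeR called no gene at the adjusted threshold with all 12 libraries (smallest adjusted P = 0.0907 among the 2909 genes with a symbol). Of the 18 genes it called without fertile replicate 5, 4 were lower, and of the 18 without fertile replicate 6, 2 were lower. The study's own fertility contrast, fitted with DESeq2, used an unadjusted P of 0.05 or less and an absolute log2FC of 0.5 or more. At these thresholds edgeR gave 269 genes higher (2.07%) and 315 lower (2.42%) in the high libraries, and DESeq2 gave 679 in all. With library size alone 103 were higher and 1028 lower. Under TMM, 43 of the 269 higher and 77 of the 315 lower genes have a symbol. This count moved with single libraries: the 584 genes became 1042 without fertile replicate 6, 897 without fertile replicate 5 and 390 without subfertile replicate 1. Fertile replicate 5, the high library with the smallest share, was the lowest of the 6 high libraries in 131 of the 269 higher genes (48.7%) and the highest of them in 150 of the 315 lower genes (47.6%).

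**Figure D3:**
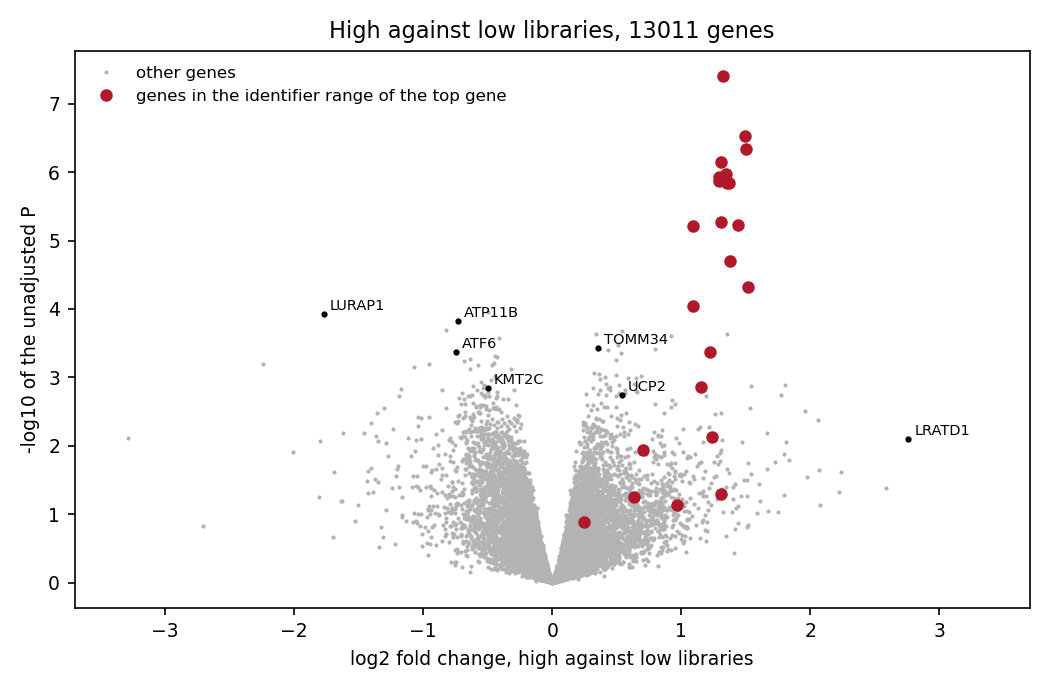
Log2 fold change of high against low libraries (horizontal) and -log10 of the unadjusted P (vertical) for 13011 genes; the 23 tested genes of the identifier range are red, and 7 genes with a symbol are labelled. Most red points form a column between 1.09 and 1.52 whose upper part lies above all other genes, while genes of both directions fill the lower part of the plot.

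Among genes with a symbol, those with the smallest P on the higher side had differences of modest size with little spread. TOMM34, a cytosolic co-chaperone of proteins bound for mitochondria, had 130, 138 and 156 CPM in the lowest, median and highest high library and 96.8, 108 and 119 CPM in the low libraries (log2FC 0.36 ± 0.08 SE, edgeR adjusted P = 0.184). JMJD6, an iron-dependent oxygenase of the nucleus, had 33.0, 34.95 and 42.1 CPM against 24.9, 26.3 and 29.4 CPM (log2FC 0.44 ± 0.09 SE, edgeR adjusted P = 0.184). CSTB, an inhibitor of cathepsins, had 39.6, 46.6 and 55.3 CPM against 26.7, 33.2 and 38.1 CPM (log2FC 0.53 ± 0.11 SE, edgeR adjusted P = 0.184). In these 3 genes every high library was above every low one. The same held for PGLS, of the pentose phosphate pathway (log2FC 0.32 ± 0.08 SE), PHKG2, a catalytic subunit of phosphorylase kinase (0.31 ± 0.08), ZNF574 (0.37 ± 0.09), WDR97 (0.57 ± 0.14) and HPCAL1, of the neuronal calcium sensor family (0.65 ± 0.16). UCP2, a carrier of the inner mitochondrial membrane, had 413, 505 and 537 CPM against 259, 326 and 424 CPM, with groups that overlapped (log2FC 0.54 ± 0.14 SE, edgeR adjusted P = 0.248), and ZNF385A differed by 0.80 ± 0.21 with overlap.

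On the lower side, LURAP1, a leucine-rich adaptor protein, had the smallest P of the named genes. It was a low transcript, at 0.300, 0.425 and 0.810 CPM in the high and 1.34, 1.78 and 2.30 CPM in the low libraries (log2FC -1.77 ± 0.33 SE, edgeR adjusted P = 0.0907), so that every high library was below every low one. LURAP1 passed the filter on low counts through the low libraries, so its test depends on that filter. ATP11B, a phospholipid flippase, had 32.6, 40.1 and 51.5 CPM against 53.4, 62.9 and 83.9 CPM (log2FC -0.73 ± 0.14 SE, edgeR adjusted P = 0.109). ATF6, a sensor of stress in the endoplasmic reticulum, had 4.13, 5.14 and 6.65 CPM against 7.76, 8.51 and 10.6 CPM (log2FC -0.75 ± 0.16 SE, edgeR adjusted P = 0.184). Groups did not overlap in either gene, nor in ASXL2, a chromatin regulator (log2FC -0.44 ± 0.10 SE), SMC1A, a core subunit of cohesin (-0.64 ± 0.14), or NHLRC2 (-0.53 ± 0.13). They overlapped in RAPGEF6, an exchange factor for Rap GTPases (-0.68 ± 0.15), TBL1XR1, of a nuclear receptor corepressor complex (-0.53 ± 0.13), KMT2C, a histone methyltransferase (-0.50 ± 0.12), and U3, a symbol of a small nucleolar RNA with near-identical copies, whose count is therefore uncertain (-1.17 ± 0.29).

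**Figure D4:**
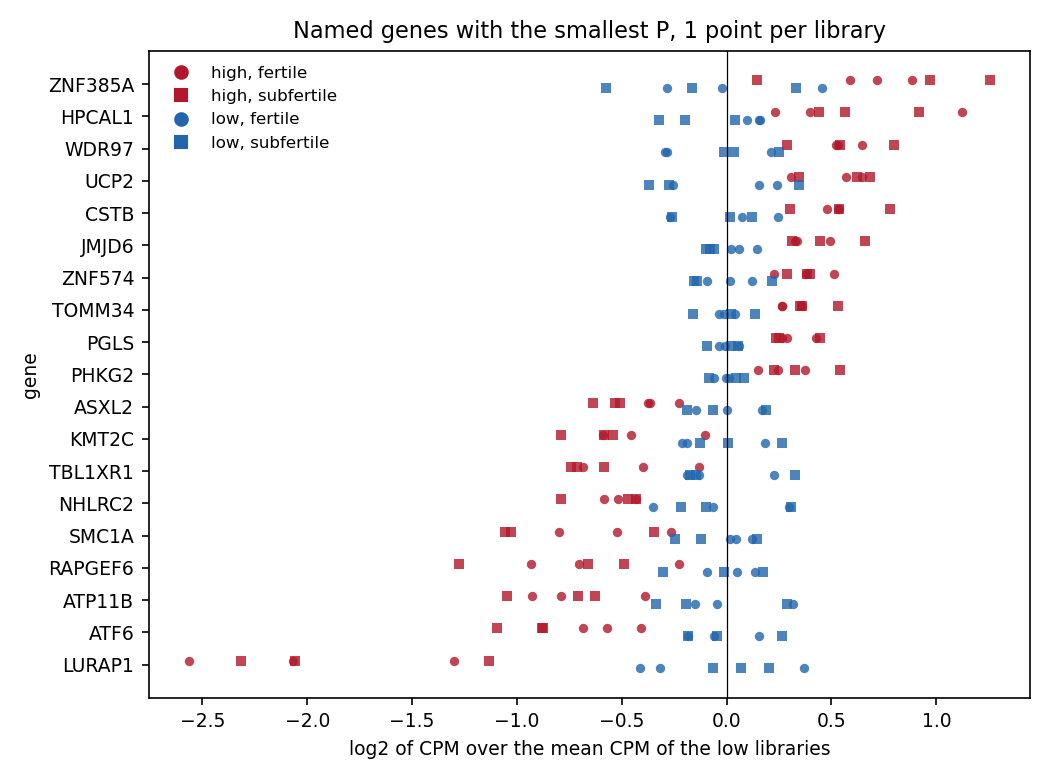
Level of 19 named genes with the smallest P in each library, as log2 of CPM over the mean CPM of the low libraries; circles are fertile and squares subfertile heifers, red the high and blue the low libraries. In ATP11B, ATF6 and LURAP1 all red points are left of all blue points, and in TOMM34, JMJD6 and CSTB all are right of them. Among the red points of ATF6 and the blue points of JMJD6, all circles are right of all squares.

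The largest fold changes among named genes past both thresholds belonged to low transcripts with wide spread. LRATD1 had 0.289, 2.30 and 16.8 CPM in the high and 0.109, 0.722 and 0.979 CPM in the low libraries (log2FC 2.76 ± 0.88 SE, edgeR adjusted P = 0.303). PLXNA2, a plexin receptor of semaphorins, differed by 1.47 ± 0.48, SFN (stratifin) by 1.33 ± 0.60, SLC13A3, a dicarboxylate transporter, by 1.32 ± 0.59 and FAM20C, a kinase of the secretory pathway, by 1.25 ± 0.46. The groups overlapped in all 5 genes. On the lower side, PPP2R2C, a regulatory subunit of a serine/threonine phosphatase, had 0.675, 1.38 and 2.03 CPM against 2.62, 2.98 and 4.10 CPM without overlap (log2FC -1.18 ± 0.31 SE, edgeR adjusted P = 0.248). SYCP2, a synaptonemal complex protein, differed by -1.41 ± 0.54 and SLC9B2, a sodium/proton exchanger, by -1.04 ± 0.30, both with overlap. SFN and SLC13A3 kept an unadjusted P of 0.05 or less in only 5 of the 12 fits that left out 1 library, and SYCP2 in 10. Of the lower genes without a symbol, ENSBTAG00000008453 had 112, 128 and 154 CPM against 160, 176 and 202 CPM (log2FC -0.50 ± 0.09 SE, edgeR adjusted P = 0.0907) and ENSBTAG00000014205 had 11.1, 13.2 and 20.9 CPM against 20.9, 24.8 and 30.8 CPM (log2FC -0.82 ± 0.16 SE, edgeR adjusted P = 0.138). In both, all high libraries were below all low libraries on the log2 CPM scale. The margin in the second was very small, as its highest high and lowest low library were both at 20.87 CPM.

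Lists of genes with known roles were described next, by the members that have a symbol in the tables used. Coverage was partial, so that each list is a sample of its pathway. Counts of members are to be read against 5.54% of all genes higher and 7.07% lower at an unadjusted P of 0.05 or less, and medians against 0.02. The lists and genes were chosen with earlier results of these data known, and no list was tested as a set.

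Genes of mitochondrial function encoded in the nucleus showed small differences. Of the subunits of respiratory complex I, the entry point of electrons from NADH, 8 of 37 could be tested; 0 had an unadjusted P of 0.05 or less and the median log2FC was 0.13 (0.06 without fertile replicate 1, 0.07 without subfertile replicate 1 or 5). The most abundant, NDUFB10, had 95.1, 109.7 and 135 CPM in the high and 66.9, 98.3 and 137 CPM in the low libraries (log2FC 0.16 ± 0.18 SE, edgeR adjusted P = 0.71). Of the ATP synthase subunits 4 of 17 could be tested, with 0 at that P and a median of 0.06. Mitochondrial ribosomal proteins, which serve translation inside the organelle, had 26 of 77 members tested, with 1 higher (MRPL58), 1 lower (MRPL15) and a median of 0.12 (0.07 without fertile replicate 1). MRPL58 kept an unadjusted P of 0.05 or less in 5 and MRPL15 in 3 of the 12 fits that left out 1 library. Under scaling by library size alone the medians of complex I and of the mitochondrial ribosomal proteins were -0.05 and -0.06. Under that scaling the median of all genes was -0.16, so both lists were still above it. None of these lists had a member at the adjusted threshold in edgeR.

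Of the factors that keep, copy and transcribe mitochondrial DNA, 5 of 24 could be tested, and 1 was lower at an unadjusted P of 0.05 or less. TFAM, which packages mitochondrial DNA and starts its transcription, had 11.8, 14.2 and 19.4 CPM in the high and 16.1, 20.9 and 26.4 CPM in the low libraries (log2FC -0.54 ± 0.17 SE, edgeR adjusted P = 0.303). High and low libraries overlapped in it. TFB2M, its partner in transcription, differed by -0.17 ± 0.12 (edgeR adjusted P = 0.531), and the list had a median of -0.16.

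The cytosolic ribosomal proteins, the protein part of the translation machinery, leaned one way under TMM: 19 of 75 were tested, all 19 had a log2FC above 0 (13 with library size alone), 2 were higher at an unadjusted P of 0.05 or less, and the median was 0.23. The median was 0.06 with library size alone, where that of all genes was -0.16, and 0.15 without subfertile replicate 1. RPLP2 had 375, 618 and 735 CPM in the high and 349, 425 and 542 CPM in the low libraries (log2FC 0.46 ± 0.16 SE, edgeR adjusted P = 0.321), and RPL35A differed by 0.36 ± 0.13 (edgeR adjusted P = 0.324). The most abundant of the list, RPLP1, had 2198, 2555 and 3118 CPM against 1400, 2217 and 2973 CPM (log2FC 0.31 ± 0.16 SE, edgeR adjusted P = 0.422). Groups overlapped in all 3 genes. Genes of the list are expressed together and are not independent of each other.

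Proteasome subunits (8 of 34 tested, median 0.03), glycolysis enzymes (8 of 19, median 0.07), apoptosis genes (7 of 25, median 0.05) and chaperones (3 of 20, median -0.01) had 0 members at an unadjusted P of 0.05 or less. In the immediate early and stress list, 7 of 31 were tested with 2 higher and a median of 0.27. ZFP36, which destabilizes cytokine messages, had 129, 146 and 164 CPM against 102, 121 and 141 CPM (log2FC 0.27 ± 0.10 SE, edgeR adjusted P = 0.327), and ATF3, a stress-induced transcription factor, differed by 0.76 ± 0.33 (edgeR adjusted P = 0.37) and kept an unadjusted P of 0.05 or less in 6 of the 12 fits that left out 1 library. Without subfertile replicate 3 the median of the list was 0.16. Of very long transcripts, 3 of 20 were tested: KMT2C (above) and SRCAP, a chromatin remodeler (-0.42 ± 0.12), were lower at an unadjusted P of 0.05 or less, and HERC1, a very large ubiquitin ligase, differed by 0.07 ± 0.09. Interferon-stimulated genes had 7 of 32 tested, 1 lower (EIF2AK2, -0.45 ± 0.15) and a median of -0.11 (-0.004 under voom, -0.03 without subfertile replicate 6 and -0.04 without fertile replicate 3). This median was -0.18 without subfertile replicate 2, -0.17 without subfertile replicate 3 and -0.26 with library size alone. Of cytokines and chemokines 9 of 23 were tested, with 7 above 0, 0 higher at that P, 1 lower and a median of 0.08 (from -0.07 without subfertile replicate 4 to 0.20 without fertile replicate 3). With library size alone 2 were above 0. IL1B, an inflammatory cytokine, had 2.18, 14.99 and 28.4 CPM against 0.362, 5.01 and 9.79 CPM (log2FC 1.46 ± 0.70 SE, edgeR adjusted P = 0.4). Its log2FC ran from 0.74 without fertile replicate 3 to 1.80 without fertile replicate 4. It had an unadjusted P of 0.05 or less in 3 of the 12 fits that left out 1 library. The lower one, CXCL10, an interferon-induced chemokine, had 4.42, 7.97 and 12.9 CPM against 10.3, 13.7 and 31.4 CPM (log2FC -0.96 ± 0.27 SE, edgeR adjusted P = 0.299).

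Markers of each blood cell type were detected, and their summed levels overlapped between high and low libraries for every type tested. Of the T cell markers 6 of 18 were tested, with 0 at an unadjusted P of 0.05 or less; their summed level ran from 1231 to 1636 CPM in high and from 937 to 2018 CPM in low libraries. CD3E, a part of the T cell receptor complex, had 485, 576 and 633 CPM against 322, 447 and 740 CPM (log2FC 0.28 ± 0.18 SE, edgeR adjusted P = 0.518). NK and cytotoxic markers (5 of 15 tested) summed to 260 to 398 CPM against 269 to 430 CPM, and plasma cell markers (3 of 9) to 313 to 657 CPM against 291 to 746 CPM, both with 0 at that P. Of the B cell markers 2 of 14 were tested. CD79A, a signalling chain of the B cell receptor, had 399, 506 and 698 CPM against 335, 532 and 719 CPM (log2FC 0.01 ± 0.19 SE, edgeR adjusted P = 0.986). PAX5, the transcription factor of B cell identity, was lower at an unadjusted P of 0.05 or less (-0.57 ± 0.19, edgeR adjusted P = 0.308).

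Markers of monocytes and of dendritic cells differed in both directions, while the neutrophil markers tested were all above 0, with wide spread. Of the monocyte markers 8 of 16 were tested; 7 had a log2FC above 0, 2 were higher and 1 lower at an unadjusted P of 0.05 or less, and the median was 0.33. With library size alone 5 were above 0 with a median of 0.13, and the median was 0.19 without subfertile replicate 4, 0.20 without subfertile replicate 6 and 0.54 without the 2 libraries nearest the threshold. FCN1, a secreted lectin of monocytes, had 71.6, 233 and 342 CPM against 16.6, 83.4 and 174 CPM (log2FC 1.14 ± 0.53 SE, edgeR adjusted P = 0.394), while ITGAM, an integrin of monocytes and neutrophils, had 64.2, 84.4 and 121 CPM against 104, 122 and 163 CPM (log2FC -0.59 ± 0.16 SE, edgeR adjusted P = 0.278). These 2 markers of the same list thus differed in opposite directions. The 4 of 24 neutrophil markers tested all had a log2FC above 0 (median 0.93) and 2 were higher at that P, S100A9 by 0.99 ± 0.40 (edgeR adjusted P = 0.359) and PADI4 by 0.86 ± 0.38 (edgeR adjusted P = 0.38). Neutrophil markers summed to 61.7 to 231 CPM in high and 27.1 to 130 CPM in low libraries, and CXCR2 was at 0 in 1 low library. Of the dendritic cell markers 3 of 14 were tested, with BATF3 higher (1.14 ± 0.42) and TCF4 lower (-0.56 ± 0.15). S100A9, FCN1 and PADI4 kept an unadjusted P of 0.05 or less in 6, 5 and 4 of the 12 fits that left out 1 library. The part of these cell types in the differences of other genes was not tested.

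Platelet markers moved with single libraries. Of 16, 8 were tested, and with all libraries all 8 had a log2FC above 0 (6 with library size alone) and 0 had an unadjusted P of 0.05 or less (median log2FC 0.26). The median was 0.65 under voom and 0.39 with the reproductive tract score added to the model. It was 0.11 with library size alone, -0.07 without the fertility term and -0.24 with the share as a numeric term. Their summed level was 2148 to 4061 CPM in high libraries and 734 to 2389 CPM in 5 low libraries, but 12408 CPM in the low library with the smallest share of the top gene, fertile replicate 6. TUBB1, the tubulin of the platelet rim, had 1001, 1829 and 2517 CPM in the high and 350, 846 and 7705 CPM in the low libraries. Without fertile replicate 6 all 8 markers were higher at an unadjusted P of 0.05 or less (median log2FC 0.94, TUBB1 1.33), where 8.3% of 13174 genes were higher and 9.91% lower at that P and the median of all genes was 0.01. Fertile replicate 6 was left out after its platelet level was seen, so this count is a description. The part of platelets in the 14 called genes was not tested; leaving out fertile replicate 6, edgeR called 18 genes at the adjusted threshold. Without subfertile replicate 1, a low library with a summed level of 734 CPM, the median over the list was -0.02, and it was 0.01 without subfertile replicate 3, 0.09 without fertile replicate 1, 0.10 without subfertile replicate 4 and 0.45 without fertile replicate 3. Erythroid markers, 2 of 18 tested, summed to 19.98 to 26.3 CPM against 21.27 to 47.8 CPM, with TFRC, the transferrin receptor, lower at an unadjusted P of 0.05 or less (-0.65 ± 0.23). The single eosinophil and basophil marker tested was at 31.2 to 51.4 CPM in high and 10.9 to 207 CPM in low libraries.

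**Figure D5:**
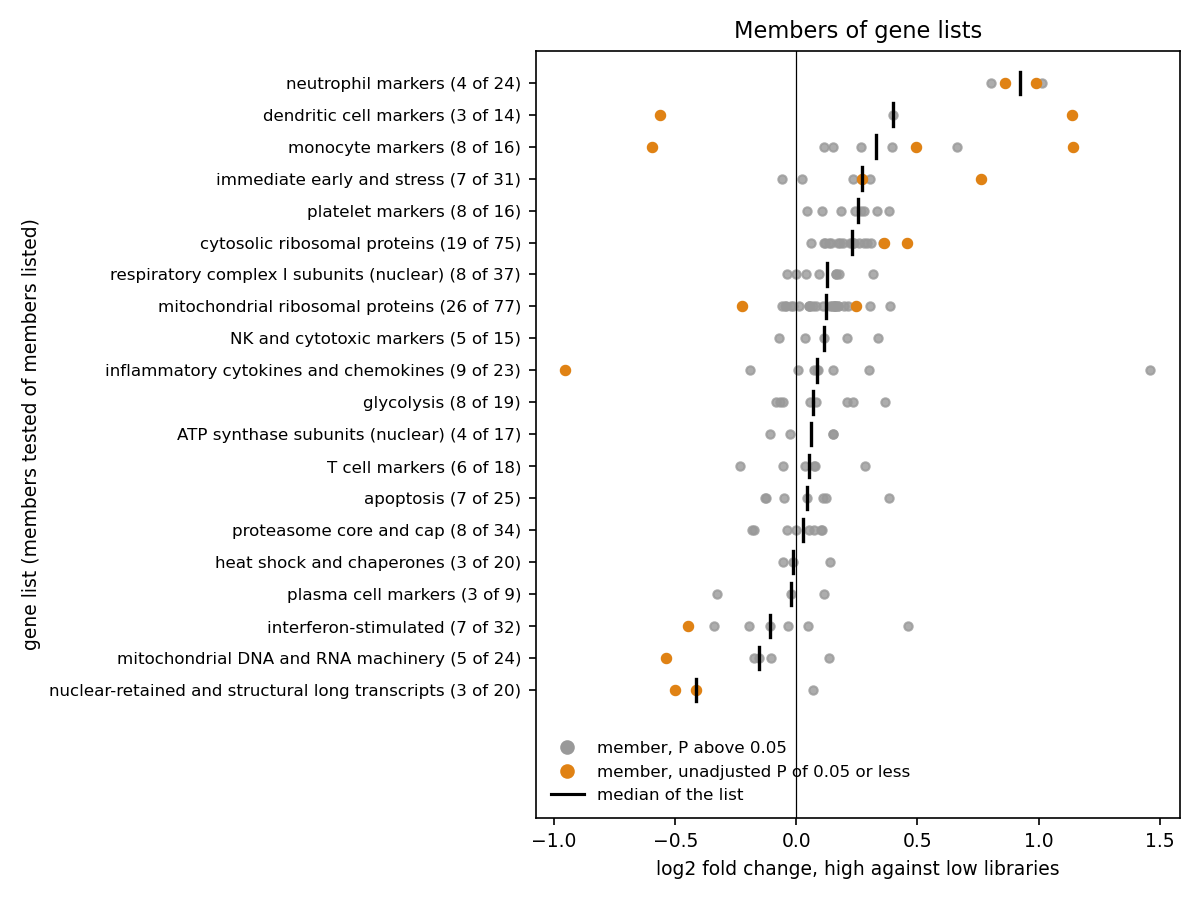
Log2 fold change of high against low libraries for the members of each gene list that could be tested (1 point per gene; orange where the unadjusted P is 0.05 or less), with the median of the list as a black line; the label gives members tested of members listed. All 19 cytosolic ribosomal proteins are right of 0 with a median of 0.23 (13 of them with library size alone), and the 4 neutrophil markers lie near 0.9.

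Measures of the whole library were compared as well. Total counts were 14010736 to 21278761 in high and 16900242 to 19416919 in low libraries. The means differed by -814504 counts, which is given with no test because the total is the denominator of the share. High libraries had fewer genes with at least 1 count: 15625, 15732 and 15988 (lowest, median and highest) against 15809, 16157 and 16323, a difference in means of -374.5 genes (two-sided exact permutation test, P = 0.00433, adjusted 0.0292 over the 9 library measures computed). After scaling all libraries to the same expected depth the difference was -313 (exact P = 0.00649, adjusted 0.0292), and after the top gene and the 14 called genes were also taken out it was -230.0 (exact P = 0.026, adjusted 0.0779). With a minimum of 10 counts it was -149 (exact P = 0.171, adjusted 0.385). The versions that keep the top gene and the 14 are set in part by the rule. In those versions a smaller part of the counts was left for other genes in high libraries. The groups overlapped in every version of the measure. The 100 most abundant of the remaining genes held 18.6% to 20.9% of the remaining counts in high and 17.4% to 22.3% in low libraries (exact P = 0.403, adjusted 0.604).

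In a principal component analysis of 12997 genes, without the 15 genes above, the first component (23.1% of variance) did not part the groups: the 6 high libraries lay together between -14.2 and -1.13, while low libraries reached from -55.2 (fertile replicate 6) to 50.3 (subfertile replicate 1). On the second component (16.9%), 5 high libraries were between -38.7 and -3.59 and 5 low libraries between 0.88 and 35.5. The exceptions were fertile replicate 5, a high library at 22.3, and fertile replicate 4, a low library at -4.87.

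Finally, the fertility comparison was repeated with the high/low term. With it, 176 genes passed both thresholds between subfertile and fertile heifers (1.35%), 82 of them higher and 94 lower in subfertile, and 0 passed an adjusted P of 0.05 in edgeR, DESeq2 or voom, with 362 genes at an unadjusted P of 0.05 or less in edgeR. Without the term 182 genes passed both thresholds, and 151 genes were in both sets. The interaction of high/low with fertility passed both thresholds in 729 genes (5.6%) and the adjusted P in 0 (edgeR, smallest adjusted P = 0.733; 834 genes at an unadjusted P of 0.05 or less; 6 genes by DESeq2 and 0 by voom). Within the 6 high libraries 241 genes passed both thresholds between fertility labels (1.85%), and within the 6 low libraries 680 did (5.23%). Of the genes that passed in both, 2 had the same sign and 18 the opposite sign. These counts moved with single libraries as well: without fertile replicate 1 the interaction passed both thresholds in 1768 genes and the fertility term in 321, and without subfertile replicate 6 the interaction did so in 1274.

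The gene with the smallest interaction P, KCNIP3, a calcium-binding protein that acts on potassium channels and on transcription, was at 9.61, 13.1 and 14.4 CPM in the 3 subfertile and at 5.18, 5.30 and 7.82 CPM in the 3 fertile high libraries. In the low libraries it was at 2.33, 2.68 and 3.60 CPM in subfertile and at 5.83, 7.55 and 10.6 CPM in fertile heifers, the opposite order, without overlap in either (interaction 2.49 on the log2 scale, edgeR adjusted P = 0.733). The only gene that edgeR called at the adjusted threshold between fertility labels within the high libraries was ENSBTAG00000047029, named after its values were seen. It was at 87.0, 90.0 and 90.8 CPM in the 3 subfertile high libraries and between 2.99 and 10.96 CPM in the other 9 libraries (log2FC 3.89 within high and 0.73 within low libraries, edgeR adjusted P = 0.0382 within high). The interaction for this gene did not pass (edgeR adjusted P = 0.733).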

How the data were processed

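RNA from PWBCs of 12 heifers was sequenced by the authors as poly(A)-selected, strand-specific paired-end libraries, extracted in 1 batch and sequenced in 1 run, mapped with STAR 2.7.5 to ARS-UCD1.3 and counted on genes with the Ensembl annotation; read quality was checked with FastQC 0.11.9 and MultiQC 1.12. The authors deposited raw counts for 27607 genes, without normalization. The strand column taken from STAR, and the flow cell lane of each library, are not given in the sources used here; the study balanced the lanes by fertility class, and lane was not tested against the high/low groups.

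The high/low groups were made from the same counts that were then compared. The members, gene lists and tests were chosen with earlier results of these data known. Genes were kept with filterByExpr (minimum count 10, fertility groups), which left 13012 genes with 99.9% of counts. TMM normalization and the quasi-likelihood test of edgeR 4.0.16 (R 4.3.3) were run with terms for fertility and high/low; the top gene was left out of the adjustment over 13011 genes. CPM use TMM-scaled library sizes, and log2 CPM a prior count of 2. SE is the absolute log2FC over the square root of F. Single values were compared with exact permutation tests (scipy). The depth was 14010736 to 21278761 counts per library. Genes named are the 10 with the smallest P and the 5 with the largest log2FC in each direction among those with a symbol and at least 1 CPM on average, 2 without a symbol in each direction and the most abundant members of each list; further genes, among them TFAM, ATF3, RPL35A, RPLP2, EIF2AK2, MRPL15, IL1B and TXNRD2, were chosen after their values were seen. Symbols came from the study's supplementary tables, which name 2911 genes. Alternatives were DESeq2 1.42.0, voom (limma 3.58.1), other scalings and filters, other model terms, the share as a numeric term, and each library left out in turn. No pair of libraries was alike (smallest chi-square per gene 21.5 within a label and 17.7 across labels). The scripts were tested on simulated data.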

Additional observations from a re-analysis of the deposited data

Results flagged for a closer look

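Within the 6 high or the 6 low libraries, 1 library was set apart from the others by a gap above the 95% critical value of Dixon's test in 8 of 190 groups of values checked. Chance flags about 1 in 20 groups. The gap is given as a part of the group's range, on the log2 CPM scale for genes, while the CPM beside it are on the plain scale. Fertile replicate 6 was the lone library in 4 of these, all among the low libraries: it was the lowest for ATF3 (gap 0.836; 0.786 CPM against 2.17 to 2.62 CPM), for U3 (0.65) and for IL1B (0.626; 0.362 CPM against 3.07 to 9.79 CPM), and the highest for MRPS6 (0.754; 171 CPM against 24.8 to 39.9 CPM). Fertile replicate 1 was the highest low library for STAT2 (0.74; 368 CPM against 91.4 to 131 CPM). Subfertile replicate 3 was the highest low library for CXCL10 (0.678; 31.4 CPM against 10.3 to 14.7 CPM). Among the high libraries, subfertile replicate 4 was the highest for TOMM34 (0.633) and subfertile replicate 5 had the most genes with at least 1 count (0.664).

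KCNIP3 is listed because all 3 subfertile heifers were above all 3 fertile heifers in the high libraries and below them in the low libraries; the interaction was 2.49 on the log2 scale, with an edgeR adjusted P of 0.733.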

How the results depend on the processing

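Leaving out 1 library at a time gave 12 to 18 genes called at an adjusted P of 0.05 or less between high and low libraries, 390 to 1042 past the unadjusted P and fold thresholds, 127 to 321 for fertility with the high/low term, 0 to 1 called and 503 to 1768 past both thresholds for the interaction, -436.6 to -333.8 genes with at least 1 count, and -0.024 (without subfertile replicate 1) to 0.941 (without fertile replicate 6) for the platelet median. The 14 calls of edgeR became 111 with DESeq2, with the 14 among them, and 25 with library size alone (13 shared). They became 0 once the top gene and the 14 were removed from the counts, an alternative chosen after seeing the data. That outcome was largely set in advance, because no other gene had passed in the main fit. The remaining settings gave 13 to 15. Genes past the unadjusted P and fold thresholds numbered 1131 with library size alone (103 higher and 1028 lower, against 269 and 315), 906 with no filter on low counts and 236 with a filter of 10 CPM in 9 libraries. For fertility these counts were 438 with no filter, 30 with the 10 CPM filter and 379 without the 2 libraries nearest the threshold. For the interaction, DESeq2 called 6 genes at the adjusted threshold, and 476 (10 CPM filter) and 1560 (without the 2 nearest libraries) passed both thresholds. The difference in genes with at least 10 counts was -149.2. Among lists with 5 or more members tested and a median of at least 0.1 in size, those that changed sign did so with library size alone for complex I (-0.051), mitochondrial ribosomal proteins (-0.055) and NK markers (-0.054), for NK markers also with the share as a numeric term (-0.004) and without the 2 nearest libraries (-0.007), and for platelet markers without the fertility term (-0.073) and with the numeric share (-0.238). Smaller medians of such lists also turned negative with library size alone for proteasome (-0.151), glycolysis (-0.11), cytokine (-0.08), apoptosis (-0.13) and T cell (-0.117) lists, and with the numeric share for proteasome (-0.039), glycolysis (-0.015), apoptosis (-0.026) and T cells (-0.064). Some did so in further settings, among them no fertility term (apoptosis -0.039) and without the 2 nearest libraries (T cells -0.039). Leaving out single libraries gave down to -0.048 for apoptosis and -0.042 for proteasome (fertile replicate 1). It gave down to -0.044 for T cells (subfertile replicate 3) and -0.069 for cytokines (subfertile replicate 4). The cause was not tested.

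No paired analysis was possible because replicate numbers only name heifers in the order of deposition. An alternative without mitochondrial transcripts and a check of sequence properties were not run, since no identifier was matched to them. The lowest depth was 14010736 counts, and the difference in genes detected was smaller with a minimum of 10 counts than with 1.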
